A study of Sus scrofa with 16 samples.

Results

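The miR-17-92 cluster and its paralogs were examined in small RNA libraries from the ovaries of 16 Large White sows. Members were every entry of the deposited table whose name gave miR-17, miR-18a, miR-18b, miR-19a, miR-19b, miR-20a, miR-20b, miR-25, miR-92a, miR-93, miR-106a or miR-106b, and 9 of the 1940 entries matched (216 of the entries were known and 1724 predicted miRNAs). The study chose unrelated multiparous sows with a high (H) or low (L) total number of piglets born, kept in the same environment, and took whole ovarian tissue in the luteal (L) or follicular (F) phase. The LH and LL sows were slaughtered on day 14 of the estrous cycle and the FH and FL sows on day 20, so that every group had 4 sows and 4 libraries. The study describes no treatment of the sows, and each library came from 1 sow.

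In these clusters, several miRNAs are cut from a single long transcript, so that their hairpins are made together and their final levels are set by later steps of cutting, loading and decay. A mature miRNA finds its target mRNAs mainly through its seed, the bases 2 to 8 at its 5′ end, and the members fall into 4 seed families, those of miR-17 (with miR-20a, miR-20b and miR-106a), miR-18, miR-19 and miR-92 (to which miR-25, miR-32 and miR-363 also belong). The miR-17 and miR-19 families are known for promoting growth and survival of cells by repressing cell cycle inhibitors and pro-apoptotic proteins, and in the ovary they have been studied in the granulosa cells of growing follicles.

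In the RefSeq annotation of the pig (Sscrofa11.1, used here for names and order only), the genes MIR17, MIR18A, MIR19A, MIR20A, MIR19B-1 and MIR92A-1 lie next to each other as the miR-17-92 cluster. The genes MIR363-1, MIR92A-2, MIR19B-2, MIR20B-1, MIR18B and MIR106A form the paralogous miR-106a-363 cluster. Of the 9 members, 4 (ssc-miR-17-5p, ssc-miR-18a, ssc-miR-19a and ssc-miR-20a) belong to the former only, 3 (ssc-miR-20b, ssc-miR-18b and ssc-miR-106a) to the latter only, and 2 (ssc-miR-19b and ssc-miR-92a) have a gene in both. The other 3 names of the rule, miR-93, miR-106b and miR-25 of the third cluster, matched no entry and were not analysed here.

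The seeds of the 4 families were also looked for in the 1700 predicted miRNAs whose mature sequence was at hand, to see whether the table held further miRNAs of these families. The motif AAAGUGC of the miR-17 family began at base 1 or 2 of 6 predicted miRNAs (0.353% of those searched), and the motifs AAGGUGC (miR-18), GUGCAAA (miR-19) and AUUGCAC (miR-92) did so in 0 of them. Only the mature strand as given was searched, and AAAGUGC and GUGCAAA can share the letters GUGC. Of the 6, 5 were overlapping entries of a single hairpin on the plus strand of chromosome 6, and the sequences of 2 of them and of the remaining entry are given with the motif in capitals.
NovelmiRNA-386: gAAAGUGCuuccauuuugagc
NovelmiRNA-607: AAAGUGCuuccauuuugagcaa
NovelmiRNA-709: uAAAGUGCuaacagugca
The precursor of NovelmiRNA-386 lies at chr6:52739140-52739197 and that of NovelmiRNA-709 at chr18:44361960-44362007 (plus strand, Sscrofa10.2). They were rare, with 264 counts for the 5 entries on chromosome 6 summed over all libraries and 15 counts for NovelmiRNA-709, which came from 1 library. The motif began at base 2, where the seed begins, in NovelmiRNA-386 and NovelmiRNA-709. In NovelmiRNA-476, NovelmiRNA-607, NovelmiRNA-1248 and NovelmiRNA-1542 it began at base 1, so that their bases 2 to 8 are not the miR-17 seed. A match of letters does not place any of these entries in a cluster.

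The libraries held 8998496 to 37194836 counts in total, and known miRNAs made up 97.1% to 99.2% of them. Levels are given as CPM (counts scaled to a common library size) after TMM normalization over all 16 libraries. For a miRNA at 0 the limit was taken as 3 counts, which corresponds to 0.0807 to 0.333 CPM of the library total and covers counting error only, because PCR copies were not told apart by molecular identifiers. In whole tissue, fewer cells of a type and less RNA per cell cannot be told apart. Of the list of 4 granulosa or steroidogenic miRNAs, 3 were counted in all 16 libraries and ssc-miR-383 was at 0 in LH1, LL3 and FH4, and the summed level of the list ran from 1353 to 4626 CPM. Lists of other cell types were present as well, among them 4 of 4 smooth muscle or stromal miRNAs, 4 of 4 skeletal or cardiac muscle miRNAs, 2 of 3 erythroid miRNAs, 1 of 2 endothelial miRNAs, the liver miRNA ssc-miR-122, and 3 of 5 leukocyte miRNAs, of which ssc-miR-142-5p was at 0 in LH1, LH2, LH3, LH4, LL2 and FL1. The libraries LH4, FL2 and FL4 stood apart in ssc-miR-92b-5p, with 386, 265 and 983 CPM against 14.9 to 42.0 CPM in the other 13, and results that rest on these libraries are also given without them.

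Together the 9 members made up 0.217% to 0.506% of the counts of a library. ssc-miR-92a was the highest member in all 16 libraries and held 44.0% to 70.4% of the member counts. The members found only in the miR-106a-363 cluster held 0.352% to 1.68% of them. For every 100 reads of ssc-miR-17-5p there were 2.23 to 3.72 reads of ssc-miR-106a, and for every 100 reads of ssc-miR-20a there were 0.838 to 6.13 reads of ssc-miR-20b. The members of these pairs have nearly the same sequence, and how reads were divided between them is not stated, so the values of ssc-miR-106a, ssc-miR-20b and ssc-miR-18b are uncertain.

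By their median over the 16 libraries the members ranked ssc-miR-92a (1965 CPM), ssc-miR-20a (542 CPM), ssc-miR-17-5p (489.97 CPM), ssc-miR-19b (467 CPM), ssc-miR-19a (68.5 CPM), ssc-miR-106a (13.0 CPM), ssc-miR-20b (11.6 CPM), ssc-miR-18a (10.8 CPM) and ssc-miR-18b (0.462 CPM). All are of nearly equal length, so that CPM can be set side by side, although the ligation of adapters is known to favour some miRNAs over others. ssc-miR-92a exceeded ssc-miR-20a, ssc-miR-19b exceeded ssc-miR-19a, and ssc-miR-19a exceeded ssc-miR-106a in 16 of 16 libraries. The order of neighbours was not fixed elsewhere, since ssc-miR-17-5p exceeded ssc-miR-19b in 8 of 16 libraries and ssc-miR-20b exceeded ssc-miR-18a in 8 of 16. ssc-miR-20a exceeded ssc-miR-17-5p in 13 of 16 libraries, with a mean log2 ratio of 0.36 ± 0.71 (SD, n = 16).

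**Figure D1:**
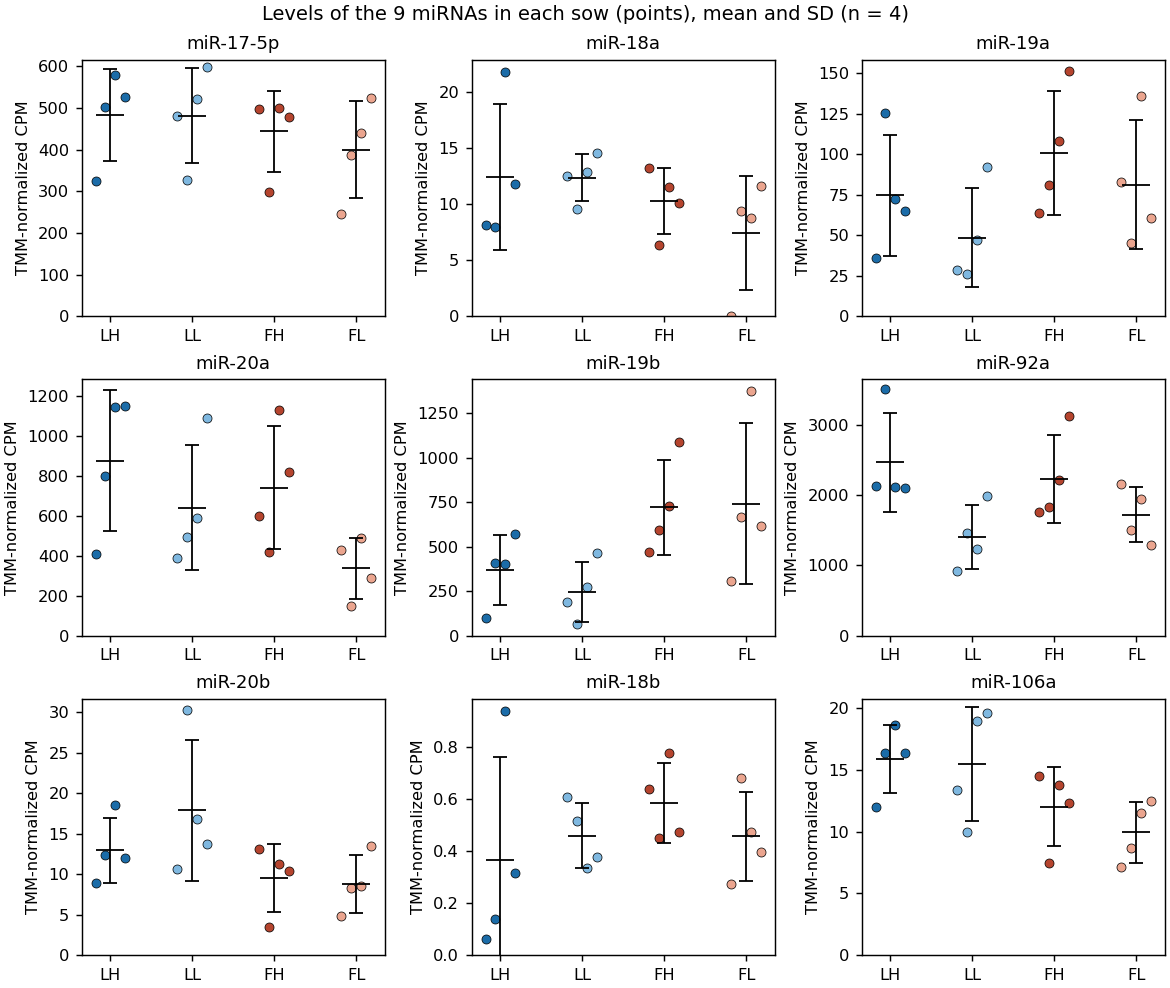
TMM-normalized CPM of each member (one panel per miRNA, each with its own axis) in every sow, with points for sows and bars for the mean and SD (n = 4). On this scale ssc-miR-92a lies higher in each LH sow than in any LL sow. ssc-miR-20a has its lowest mean in FL, and ssc-miR-19b is higher in most follicular than luteal sows.

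The comparison of LH vs. LL asked whether the clusters differed with fecundity in the luteal phase. ssc-miR-92a, the most abundant member and of the miR-92 seed family, had a level of 2133, 3516, 2109 and 2096 CPM in LH1 to LH4 and of 926, 1462, 1230.4 and 1991 CPM in LL1 to LL4. On this TMM scale every LH sow lay above every LL sow, although LH4 and LL4 were close to each other. The TMM factors ran from 0.851 to 1.07 in LH and from 1.19 to 1.74 in LL. By share of the library total the groups overlapped, since LL4 had 57838 of 24593646 counts and LH4 had 46668 of 24396229. The log2 fold change of LL over LH was -0.81 ± 0.30 (SE), with an unadjusted P of 0.0288 and an adjusted p of 0.253 in edgeR's quasi-likelihood test (Benjamini-Hochberg over the 362 miRNAs tested). An exact two-sided permutation test of the TMM levels gave p = 0.0286, which is the smallest that 4 sows against 4 allow. It thus fell short of the threshold of the study, which asks for an unadjusted P under 0.05 and a log2 fold change of 1 or more in size.

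Among the members, 0 of 8 tested passed this threshold in LH vs. LL, beside 13.0% of all miRNAs tested, and 0 of 8 had an adjusted p under 0.05, beside 0.829% of all. By edgeR, 1 of the 8 had an unadjusted P under 0.05, beside 65 of all 362 miRNAs tested. On the TMM scale, groups that did not overlap were found for 1 of 8 members and for 15.7% of all miRNAs tested. The median log2 fold change of the 8 members was -0.22, and that of all miRNAs tested was 0.15. Leaving out LL4 moved the value of ssc-miR-92a to -1.09, which passed the threshold (unadjusted P = 0.014), and it was -0.60 (unadjusted P = 0.0747) without LH2. With library size only as scaling it was -0.23, and it was -0.48 when each library's clean read share entered the model. With the parity of the sow in the model it was -0.73 (unadjusted P = 0.375 in edgeR's test). Lists of muscle and endothelial miRNAs moved with these groups. The smooth muscle or stromal list, of which 4 of 4 were counted in all libraries, summed to 148611 to 246428 CPM in LH and 84507 to 135648 CPM in LL, and the skeletal or cardiac muscle list (4 of 4) to 2097 to 3128 CPM in LH and 309 to 830 CPM in LL. The endothelial ssc-miR-126-5p lay the other way, at 22206 CPM in LH1 and 7751 to 9487 CPM in the other LH sows against 15242 to 26360 CPM in LL. Their part in the difference of ssc-miR-92a was not tested.

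The remaining members of the miR-17-92 cluster overlapped between LH and LL. ssc-miR-20a, of the miR-17 seed family, had 408, 801, 1146 and 1148 CPM in LH1 to LH4 and 388, 494, 590.2 and 1090.3 CPM in LL1 to LL4, with a log2 fold change of -0.44 ± 0.42 (SE, unadjusted P = 0.334, adjusted p = 0.662 in edgeR's test). With the parity of the sow in the model it was -2.21 (unadjusted P = 0.0153), which passed the threshold, and its adjusted p ran from 0.278 to 0.964 over the alternatives. ssc-miR-17-5p, which shares its seed and transcript, had 324, 503, 579.7 and 527 CPM in LH and 482, 328, 521 and 598 CPM in LL, a log2 fold change of 0.02 ± 0.28 (SE). The groups covered nearly the same range for this miRNA. ssc-miR-19a and ssc-miR-19b, which share the miR-19 seed, had log2 fold changes of -0.62 ± 0.55 and -0.58 ± 0.67 (SE), with unadjusted P of 0.292 and 0.414 in edgeR's test, and the value of ssc-miR-19b was -3.12 (unadjusted P = 0.0508) with parity in the model. ssc-miR-20b, of the miR-106a-363 cluster, had a value of 0.50 ± 0.47 (SE, unadjusted P = 0.318 in edgeR's test), and its highest level, 30.3 CPM in LL2, stood above the 8.90 to 18.5 CPM of the other 7 luteal sows. ssc-miR-18a and ssc-miR-106a had log2 fold changes of 0.04 and -0.01, and ssc-miR-18b, with 1 to 18 counts in a luteal library, had too few counts for the filter and was not tested.

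The same question was asked of the follicular phase with FH vs. FL. ssc-miR-20a was down-regulated in FL by the threshold of the study, from 598, 417, 1128 and 819 CPM in FH1 to FH4 to 427, 147, 489.6 and 287 CPM in FL1 to FL4. The FL sows were lower on average, but FL1 and FL3 exceeded FH2, so the groups overlapped. The log2 fold change of FL over FH was -1.13 ± 0.48 (SE), with an unadjusted P of 0.0487 and an adjusted p of 0.644 by edgeR's test over 307 miRNAs, and an exact two-sided permutation test of the same libraries gave p = 0.0857. The call was not stable. It was lost without FH1, FH3, FH4, FL2, FL3 or FL4, each left out alone, with values from -1.27 to -0.73, and it was kept without FH2 or FL1. The value was -0.73 (unadjusted P = 0.181) without FH3 and -0.65 (unadjusted P = 0.186) without FL2 and FL4 together. It was -0.58 when the clean read share entered the model and -0.78 when the parity of the sow did. Over 18 alternatives the threshold was passed in 6, and the adjusted p ran from 0.252 to 0.999. The liver miRNA ssc-miR-122 stood at 3.27 to 41.5 CPM in FH and 30.1 to 1363 CPM in FL, with its highest level in FL2, the library with the lowest ssc-miR-20a. The endothelial ssc-miR-126-5p stood at 8134 to 11872 CPM in FH and was lower in FL2 (2461 CPM) and FL4 (4381 CPM), but not in FL1 and FL3 (9343 and 11048 CPM). The smooth muscle or stromal list summed to 273082 to 488813 CPM in FH and 197995 to 364656 CPM in FL. The skeletal or cardiac muscle list summed to 1796 to 4193 CPM in FH and 529 to 2986 CPM in FL, with its lowest sums in FL2 and FL4. ssc-miR-1 (240 and 503 CPM) and ssc-miR-133a-5p (238 and 237 CPM) were lowest in FL2 and FL4. However, ssc-miR-133b was lowest in FL1 (27.1 CPM), and ssc-miR-206 was higher in FL4 (17.2 CPM) than in FH1 (10.8 CPM). The part of these miRNAs in the result was not tested.

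Past the threshold were 1 of 8 members tested in FH vs. FL, beside 6.19% of all miRNAs tested, and 0 of 8 had an adjusted p under 0.05, beside 0.651% of all. Groups without overlap were found for 0 of 8 members and for 2.61% of all. All 8 log2 fold changes were below 0, with a median of -0.32 for the members and 0.12 for all miRNAs tested, but 4 of them (ssc-miR-17-5p, ssc-miR-19b, ssc-miR-20b and ssc-miR-106a) changed sign when library size alone was used as scaling. ssc-miR-92a had 1764, 1830.1, 2218 and 3119.9 CPM in FH and 2151, 1509, 1939.5 and 1291 CPM in FL, a log2 fold change of -0.35 ± 0.30 (SE, unadjusted P = 0.275 in edgeR's test). ssc-miR-17-5p had 498, 298, 501 and 478 CPM in FH and 246, 388, 440.0 and 525 CPM in FL, a log2 fold change of -0.22 ± 0.25 (SE). Neither separated the groups. ssc-miR-19b was nearly level between FH and FL, with a log2 fold change of -0.02 ± 0.43 (SE), which turned above 0 in 10 of 18 alternatives. For ssc-miR-18a the value of -0.62 had an SE of 1.22, since FL1 held 0 counts of it.

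The 0 of ssc-miR-18a in FL1 stood against 56 to 423 counts in the other 15 libraries. FL1 had 24892715 counts in total, so that 3 counts corresponded to 0.121 CPM of the library total. The other FL sows had 8.74 to 11.6 CPM after TMM normalization. The near-identical ssc-miR-18b had 5 counts in FL1 and also 5 in FL3, where ssc-miR-18a had 92. Whether the 0 was a level or a value missing from the counts was not tested. Of the 157 known miRNAs with at least 50 counts in at least 15 libraries, 3 showed such a single 0, and the other two, ssc-miR-326 and ssc-miR-452, had it in LH3. These were named after their values were seen. ssc-miR-17-5p, cut from the same transcript as ssc-miR-18a, was at 246 CPM in FL1.

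**Figure D2:**
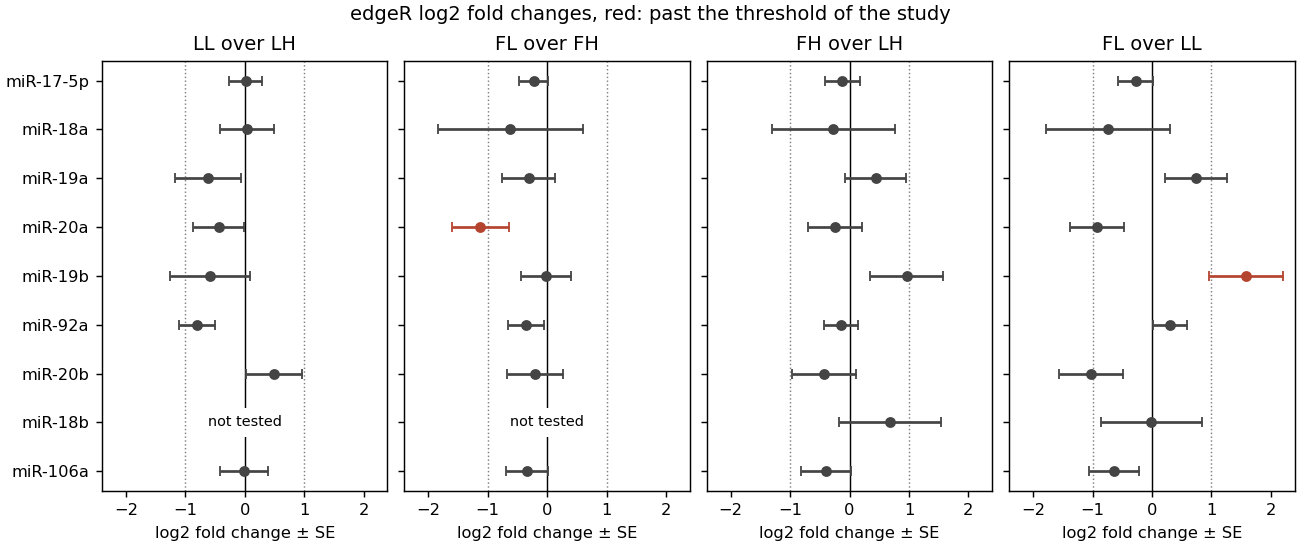
Log2 fold changes of the members from edgeR (points) with their standard errors (bars) in LL over LH, FL over FH, FH over LH and FL over LL, with dotted lines at log2 fold changes of -1 and 1. Red marks the values past the threshold of the study, ssc-miR-20a in FL over FH (-1.13) and ssc-miR-19b in FL over LL (1.59), and ssc-miR-18b was not tested in the first 2 panels.

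The luteal and follicular phases were then compared with all 16 libraries in 1 model. ssc-miR-19b, of the miR-19 seed family with genes in both clusters, was up-regulated in the follicular phase. Its level was 100.5, 405, 401 and 570.4 CPM in LH1 to LH4 and 186, 63.7, 271 and 466 CPM in LL1 to LL4. In the follicular phase it was 468, 594, 729 and 1089 CPM in FH1 to FH4 and 306, 668, 1373 and 618 CPM in FL1 to FL4. The phases overlapped, since FL1 lay below LH2, LH3, LH4 and LL4, and FH1 lay below LH4. The mean levels of LH and LL were 369 ± 196 and 247 ± 169 CPM, and those of FH and FL were 719.9 ± 268 and 741 ± 450.7 CPM (SD, n = 4).

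The log2 fold change of follicular over luteal for ssc-miR-19b was 1.28 ± 0.44 (SE), with an unadjusted P of 0.0109 and an adjusted p of 0.0591 by edgeR's test over 445 miRNAs. In 24 of 25 alternatives the threshold was passed, including each of the 16 fits that left out a library, which gave 1.07 to 1.52. The exception was scaling by library size only, where the value was 0.88 with an unadjusted P of 0.049. The adjusted p over these alternatives ran from 0.00887 to 0.214, and it was 0.0323 with a replicate block and 0.108 without LH4, FL2 and FL4. The smooth muscle or stromal list also moved with the phase, from 84507 to 246428 CPM in luteal to 197995 to 488813 CPM in follicular libraries. The endothelial ssc-miR-126-5p stood at 7751 to 26360 CPM in luteal and 2461 to 11872 CPM in follicular libraries, and each LL sow (15242 CPM or more) lay above each FL sow (11048 CPM or less). The sum of the granulosa or steroidogenic list was 1961 to 4626 CPM in luteal and 1353 to 2387 CPM in follicular libraries, but its miRNAs did not move together. In this list ssc-miR-202-5p stood at 1209 to 3843 CPM in luteal and 64.5 to 1302 CPM in follicular libraries. ssc-miR-378 lay the other way, at 681 to 935 CPM in luteal and 854 to 2174 CPM in follicular libraries. Far lower were ssc-miR-224 and ssc-miR-383, at no more than 29.6 and 5.88 CPM in any library. The part of these miRNAs in the result was not tested. Whether the libraries of the phases were prepared together is not stated, so that preparation and phase cannot be told apart.

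Within the fecundity groups the log2 fold change of ssc-miR-19b was 0.96 ± 0.61 (SE, unadjusted P = 0.138) from LH to FH and 1.59 ± 0.62 (SE, unadjusted P = 0.0227, adjusted p = 0.0962) from LL to FL in edgeR's test, and the latter passed the threshold. Exact two-sided permutation tests gave p = 0.0571 for each. These values were not shown to differ, since the interaction of fecundity and phase was 0.62 ± 0.86 (SE, unadjusted P = 0.479 in edgeR's test). The call in FL over LL was lost without LL1 (1.45), LL2 (1.25) or FL3 (1.17), each left out alone. It was also lost with library size only as scaling (1.03, unadjusted P = 0.0987) and without LH4, FL2 and FL4 together (1.65, unadjusted P = 0.0534), so that 20 of 25 alternatives kept it.

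The other members did not pass the threshold between phases, and their values lay on both sides of 0. ssc-miR-19a, which shares the seed of ssc-miR-19b and the transcript of ssc-miR-20a, had 25.9 to 125.2 CPM in the luteal and 45.1 to 151 CPM in the follicular libraries, a log2 fold change of 0.59 ± 0.37 (SE, unadjusted P = 0.128 in edgeR's test). ssc-miR-20a had 388 to 1148 CPM in the luteal and 147 to 1128 CPM in the follicular libraries, with a value of -0.58 ± 0.32 (SE, unadjusted P = 0.0939 in edgeR's test). ssc-miR-17-5p and ssc-miR-92a were close to level between phases, at -0.20 ± 0.21 and 0.08 ± 0.20 (SE). ssc-miR-20b and ssc-miR-106a, the miR-17 family members of the paralogous cluster, had values of -0.73 ± 0.38 and -0.52 ± 0.30 (SE), with unadjusted P of 0.0759 and 0.101 in edgeR's test. ssc-miR-18a had a value of -0.50 ± 0.73 and ssc-miR-18b, at 1 to 18 counts in a library, of 0.33 ± 0.61 (SE).

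Of the 9 members, 1 passed the threshold in luteal vs. follicular, beside 23.4% of all miRNAs tested, and 0 had an adjusted p under 0.05, beside 17.5%. Phases without overlap were found for 0 members and for 1.80% of all. The median log2 fold change was -0.20 for the members and -0.17 for all. From LH to FH, 0 of 9 passed (12.8% of all), 0 had an adjusted p under 0.05 (0% of all) and 0 had groups without overlap (8.99% of all). The corresponding counts from LL to FL were 1 of 9 (30.1% of all), 0 (15.5% of all) and 0 (22.9% of all). In the test of the interaction 0 of 9 passed the threshold (13.3% of all) and 0 had an adjusted p under 0.05 (0% of all). By edgeR, 0 of 9 had an unadjusted P under 0.05 there, beside 63 of all 445 miRNAs tested.

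**Figure D3:**
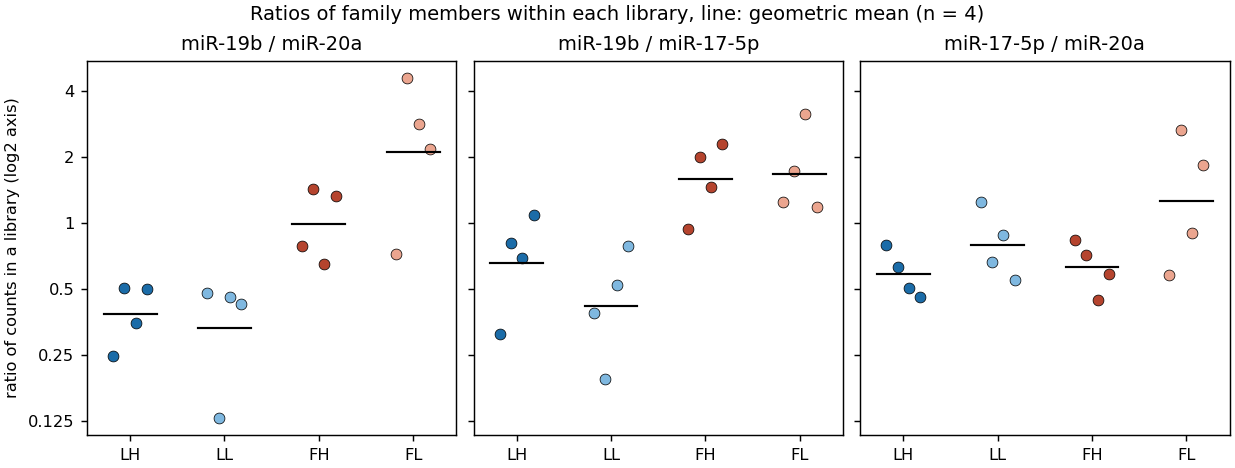
Ratios of the counts of 2 members within each library, on a log2 axis, for each sow (points) by group, with lines at the geometric mean (n = 4). In the panel of ssc-miR-19b over ssc-miR-20a, all luteal sows lie at or below 0.506 and all follicular sows at or above 0.646, whereas ssc-miR-17-5p over ssc-miR-20a overlaps between phases.

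Since no scaling of a library changes the ratio of 2 of its counts, the members were also compared with each other within each library. The pair of ssc-miR-19b and ssc-miR-20a was noticed in the levels first, and the ratios of all pairs were then tested. There were 0.246, 0.506, 0.350 and 0.497 reads of ssc-miR-19b per read of ssc-miR-20a in LH1 to LH4, and 0.479, 0.129, 0.459 and 0.427 in LL1 to LL4. In the follicular phase the ratio was 0.783, 1.42, 0.646 and 1.33 in FH1 to FH4, and 0.716, 4.56, 2.80 and 2.16 in FL1 to FL4. Every follicular library thus lay above every luteal library, and 5 of the 8 had more ssc-miR-19b than ssc-miR-20a.

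The ratio of ssc-miR-19b to ssc-miR-20a was higher by 2.02 on the log2 scale in the follicular phase (permutation test of 8 libraries against 8, exact and two-sided, p = 0.0001554, the smallest such a test can give). The adjusted p over the 14878 pairs of the 173 known miRNAs counted in all libraries was 0.005883. The difference was 1.37 from LH to FH and 2.67 from LL to FL (exact permutation p = 0.0286 for each, the smallest 4 sows against 4 allow). It was 1.71 without LH4, FL2 and FL4 (exact permutation p = 0.0005828) and 1.78 to 2.18 with each library left out in turn. Of the 28 pairs of the 8 members with counts in all libraries, 11 (39.3%) had an adjusted p under 0.05, beside 36.1% of all pairs of known miRNAs, a share near that background. Phases without overlap were found for 1 of the 28 pairs (3.57%), beside 2.64% of all pairs.

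Pairs with ssc-miR-19b gave several of the other differences. Relative to ssc-miR-17-5p, ssc-miR-19b was higher by 1.63 on the log2 scale in the follicular phase (exact permutation p = 0.0003108, adjusted p = 0.006634), with 0.194 to 1.08 reads per read of ssc-miR-17-5p in luteal and 0.940 to 3.12 in follicular libraries. ssc-miR-19a was higher relative to ssc-miR-20a by 1.25 (exact permutation p = 0.001088, adjusted p = 0.009594), from 0.0524 to 0.156 reads in luteal to 0.0959 to 0.308 in follicular libraries. ssc-miR-17-5p and ssc-miR-20a, of the same seed family and transcript, differed between phases by 0.38 in their log2 ratio, which was within the spread between libraries (exact permutation p = 0.3055, adjusted p = 0.4137). There were 2.79 to 3.72 reads of ssc-miR-106a per 100 of ssc-miR-17-5p in luteal and 2.23 to 2.92 in follicular libraries, a log2 difference of 0.32 in favour of ssc-miR-17-5p (exact permutation p = 0.0004662, adjusted p = 0.007418).

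After the means of the 4 groups were removed, the members varied among sows in different combinations. Pearson's r of log2(CPM + 1) over the 16 libraries was 0.94 between ssc-miR-17-5p and ssc-miR-106a, which lie in different clusters but have nearly the same sequence. It was 0.77 between ssc-miR-19a and ssc-miR-20a, 0.77 between ssc-miR-19a and ssc-miR-92a, and 0.76 between ssc-miR-17-5p and ssc-miR-19b. Within 1 transcript, r was -0.02 between ssc-miR-18a and ssc-miR-19a and -0.0056 between ssc-miR-18a and ssc-miR-20a. The 0 counts of ssc-miR-18a in FL1 enter every r of this miRNA, and r was not computed without FL1. Whether ssc-miR-18a varied apart from its transcript therefore cannot be read from these values. ssc-miR-92a, which has a gene in both clusters, had r of -0.03 with ssc-miR-17-5p and -0.35 with ssc-miR-18a. ssc-miR-20b, of the paralogous cluster, had r of 0.25 with ssc-miR-20a and 0.48 with ssc-miR-106a. These values are descriptions, since the points share libraries, their depth and their scaling.

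**Figure D4:**
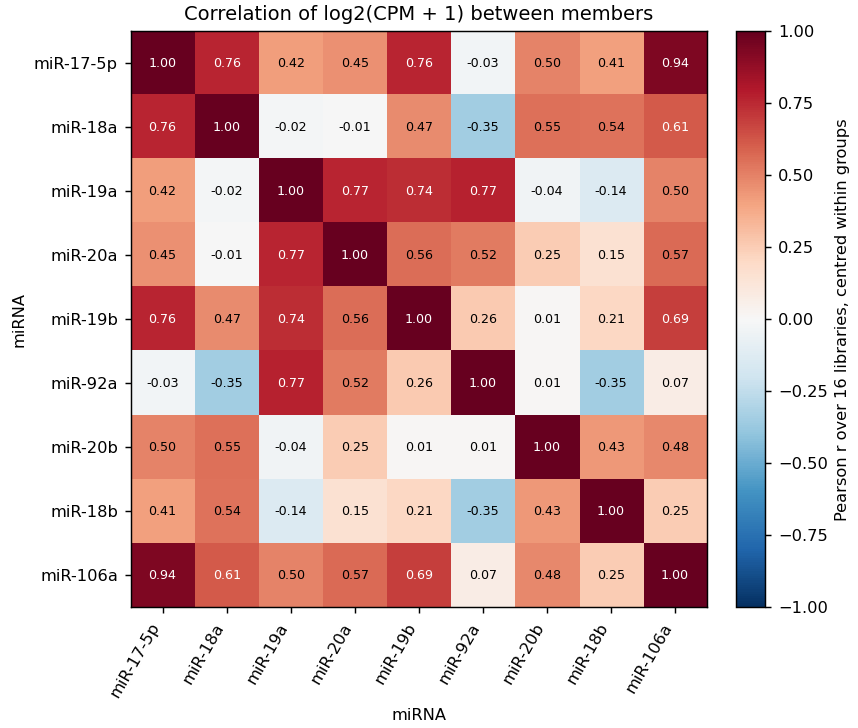
Pearson's r of log2(CPM + 1) between each pair of the 9 members over 16 libraries, after subtracting the mean of each group, from -1 (blue) to 1 (red). The highest value is that of ssc-miR-17-5p and ssc-miR-106a (0.94), and the lowest include ssc-miR-92a with ssc-miR-18a (-0.35). The values of ssc-miR-18a include FL1, where it had 0 counts.

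The known miRNAs outside the clusters whose levels were most like the mean level of the members (Pearson's r of log2(CPM + 1) over 16 libraries, among 191 candidates) were ssc-miR-16 (0.70), ssc-miR-15b (0.64), ssc-miR-190a (0.61), ssc-miR-30c-5p (0.60) and ssc-miR-101 (0.56). The mean level itself ran from 5.37 in FL1 to 6.59 in LH3 on this log2 scale. It includes ssc-miR-18a, whose 0 counts in FL1 lower the mean of that library and also enter the ranking.

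Of the 3 relatives outside the rule, ssc-miR-363 is the remaining miRNA of the miR-106a-363 cluster and shares the seed of miR-92. It had 31.0 to 89.9 CPM in luteal and 23.5 to 61.4 CPM in follicular libraries, with a log2 fold change of -0.64 ± 0.28 (SE, unadjusted P = 0.0358, adjusted p = 0.123 in edgeR's test), which did not reach the threshold. ssc-miR-32, a single gene outside the clusters with the same seed, was down-regulated in the follicular phase, from 187, 71.9, 131 and 163 CPM in LH and 135, 261, 169 and 213 CPM in LL to 116, 39.3, 94.4 and 68.4 CPM in FH and 57.6, 27.9, 32.0 and 67.4 CPM in FL. All LL sows lay above all FL sows, while LH and FH overlapped through LH2. The log2 fold change was -1.43 ± 0.31 (SE, adjusted p = 0.00689) over the phases and -2.07 ± 0.44 (SE, adjusted p = 0.00858) from LL to FL in edgeR's test. ssc-miR-92a, which has the same seed family as ssc-miR-32, had a value of 0.30 ± 0.29 (SE) from LL to FL. ssc-miR-92b-5p is named for the other strand of a further miR-92 hairpin, although whether its reads came from that strand only is uncertain. Its log2 fold changes of -2.82 in LH vs. LL, 3.42 in FH vs. FL and 4.18 from LL to FL owed their size to LH4, FL2 and FL4. The groups remained apart without these libraries in LH vs. LL (28.7 to 42.0 CPM in LH against 14.9 to 21.5 CPM in LL) and narrowly from LL to FL (26.1 and 22.3 CPM in FL1 and FL3).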

How the data were processed

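Small RNA libraries from the ovaries of 16 sows (groups LH, LL, FH and FL by the labels, 4 sows each) were analysed. According to the study's methods, reads were cleaned with Trimmomatic and aligned to Sscrofa10.2 with Bowtie 2, and miRDeep served to predict additional miRNAs. The authors deposited raw counts per miRNA without normalization or filtering, and how reads were assigned to miRNAs is not given in the sources used here. Since the members of each pair differ in few bases, this assignment could move reads between ssc-miR-17-5p and ssc-miR-106a, and likewise within the other pairs.

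Counts were tested by the quasi-likelihood method of edgeR 4.0.16 under R 4.3.3 (TMM, a count minimum of 10 and a total minimum of 15), over the whole table, in 8 libraries for each comparison of fecundity and in 16 for the phases and the interaction. Adjusted p-values are Benjamini-Hochberg values over all miRNAs tested. Exact permutation tests of levels used log2(CPM + 1), and those of pair ratios used the log2 ratio of the raw counts. Library totals ran from 8998496 to 37194836 counts. The members and lists, including those of cell types, were chosen with earlier results of these data known. The text names all members, 3 relatives, and the 5 known miRNAs most like the members. The scripts were tested on simulated data. Alternatives were DESeq2 1.42.0, no filter, TMM on the known miRNAs, library size only, sums of near-identical members, identical entries collapsed, a replicate block, the clean read share and the parity as covariates, a single fit of 16 libraries, a pseudocount of 0.5, and leaving out each library. The fit without LH4, FL2 and FL4 and the pair ratios were chosen after seeing the data. The replicate numbers were not taken to pair sows, which were unrelated. Sequences of predicted miRNAs came from the study's supplementary tables.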

Additional observations from a re-analysis of the deposited data

Results flagged for a closer look

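Among the levels of the 9 members in the 4 groups, 36 sets of 4 sows were checked for a sow far from the others, and chance alone would mark about 1 in 20. In FH, the level of ssc-miR-17-5p in replicate 2 (298 CPM) lay below the other sows, with 0.886 of the whole range of the group between it and its nearest neighbour. In LH, the level of ssc-miR-92a in replicate 2 (3516 CPM) lay above the other sows by 0.974 of the range. The difference of ssc-miR-92a between LH and LL without this sow was -0.60 on the log2 scale.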

How the results depend on the processing

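Of 1389 values under an alternative, 1280 kept their direction and their side of the threshold, 60 changed sign, 18 lost and 10 gained a call, and 21 counts of members past the threshold moved. None of the 60 had passed the threshold or did so with the other sign. Scaling by library size only shifted the median log2 fold change of all miRNAs by 0.60 in LH vs. LL, 0.39 in FH vs. FL and -0.37 in luteal vs. follicular, and moved the miRNAs past the threshold above and below 0 from 24 and 23 to 57 and 11 in LH vs. LL and from 46 and 58 to 26 and 89 in luteal vs. follicular.

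Under that scaling the log2 fold changes in LH vs. LL were 0.60 for ssc-miR-106a, 0.15 for ssc-miR-20a and 0.034 for ssc-miR-19b. In FH vs. FL they were 0.010 for ssc-miR-106a, 0.17 for ssc-miR-17-5p, 0.20 for ssc-miR-20b and 0.32 for ssc-miR-19b. In luteal vs. follicular they were -0.35 for ssc-miR-92a and -0.013 for ssc-miR-18b. From LL to FL ssc-miR-92a had -0.30, and the interaction of ssc-miR-19a was -0.060. In LH vs. LL ssc-miR-17-5p had -0.00074 with DESeq2, -0.038 without a filter, -0.79 with parity and -0.0037 in the single fit. ssc-miR-18a had -0.018 without a filter, -1.15 with parity, -0.0065 in the single fit and -0.039 without LH4. ssc-miR-106a had 0.010 with identical entries collapsed and 0.030 with the clean read share, under which ssc-miR-20a had 0.10. In FH vs. FL ssc-miR-19b had 0.075 with TMM on the known miRNAs, 0.055 without a filter, 0.042 in the single fit and 0.18 without FL2 and FL4. ssc-miR-19a had 0.057 with the clean read share and 0.14 without FL2 and FL4. From LH to FH ssc-miR-20a had 0.0017 with the clean read share.

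The number of members past the threshold became 1 in LH vs. LL with parity (ssc-miR-20a, -2.21). In FH vs. FL it became 0 with no filter, TMM on the known miRNAs, library size only, the clean read share, parity, and without FL2 and FL4. From LL to FL it became 2 with DESeq2 or identical entries collapsed, 3 with library size only, and 0 without LH4, FL2 and FL4. The 3 were ssc-miR-20a (-1.55), ssc-miR-20b (-1.49) and ssc-miR-106a (-1.18), all lower in FL, while ssc-miR-19b (1.03) was no longer past the threshold. Among all miRNAs from LL to FL, 49 above and 88 below 0 were past the threshold with library size only. There were 78 and 63 with DESeq2, and 73 and 61 of 445 in the main fit. With each library left out in turn, the number of members past the threshold ran from 0 to 1 in FH vs. FL, likewise for LH vs. LL (1 without LL4). From LL to FL it ran from 0 to 2. Over the same fits, ssc-miR-106a ran from -0.23 to 0.079, ssc-miR-17-5p from -0.17 to 0.087 and ssc-miR-18a from -0.16 to 0.37 in LH vs. LL. In FH vs. FL ssc-miR-20b ran from -0.42 to 0.037 and ssc-miR-19b from -0.40 to 0.31. In luteal vs. follicular ssc-miR-92a ran from -0.017 to 0.21. From LH to FH ssc-miR-17-5p ran from -0.28 to 0.019, ssc-miR-92a from -0.37 to 0.12 and ssc-miR-18a from -0.43 to 0.13. ssc-miR-18b ran from -0.23 to 0.12 from LL to FL, and the interaction of ssc-miR-19a from -0.10 to 0.85. The cause of these changes was not tested.

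The sows were unrelated by the study's account, so the replicate numbers were not taken to pair them. Same-numbered libraries within a phase correlated between -0.19 and 0.20, and LH1 and LH4 correlated best with their own number in LL. With 4 sows in a group such values cannot decide whether the numbers pair libraries. With a replicate block the members past the threshold stayed at 0 in LH vs. LL and at 1 in the FH vs. FL comparison, where ssc-miR-20a had -1.23. Depth limits ssc-miR-18b in particular, which had at most 18 counts in a library.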
